A study of Mus musculus with 15 samples.

Results

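The comparison described here asked which cardiac transcripts differ when a virus that makes renalase (RNLS) is given to wild-type mice with chronic kidney disease (CKD). Hearts labelled WTCKD + RNLS (n = 3) were set against hearts labelled WTCKD (n = 3). A gene was tested where at least 3 of these 6 libraries held at least 10 counts, which left 12573 of 17447 genes. All mice of both groups were wild-type C57BL/6J males, 6 to 8 weeks old at entry according to the methods, with subtotal nephrectomy in 2 operations, and hearts were taken 18 weeks after surgery. WTCKD mice received the vector and WTCKD + RNLS mice AAV9-cTnT-Rnls by tail vein in week 2. The cardiac troponin T promoter restricts the transgene to cardiomyocytes, so that other cells of the heart are not meant to express it from the virus. RNA came from heart tissue without separation of cells, so fewer cells of a type and less RNA per cell cannot be told apart. The other libraries of the series were 3 of sham-operated wild-type hearts (WTSHAM), 3 of hearts of RNLS knockout mice with CKD given the vector (KOCKD) and 3 given the same virus (KOCKD + RNLS). The knockout line and the wild-type mice came from different suppliers. Rnls itself was not analysed here, so the transgene was not checked in the single libraries.

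Renalase is a flavoprotein made in kidney, heart and other tissues that was first described as an enzyme of catecholamine breakdown and was later found to oxidise unusual isomers of NADH and to act on cells from outside. Several of the genes that moved most in these hearts belong to the circadian clock. In this loop the activators ARNTL (BMAL1), CLOCK and NPAS2 bind DNA motifs called E-boxes and switch on the PER, CRY and REV-ERB genes, whose products in turn shut the activators down, and output factors such as DBP, TEF and HLF carry the rhythm to other genes through motifs called D-boxes. The cardiac matrix, the other large group, is made mostly by fibroblasts and, for basement membranes, by endothelial cells.

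Each library held between 10480788 and 13424078 reads counted on genes. A principal component analysis of the 6 libraries put 41.4% of the variance on an axis along which WTCKD (scores of -23.4, -34.2 and 0.24) lay below WTCKD + RNLS (17.8, 31.6 and 7.88). On the second axis, with 25.1% of the variance, WTCKD replicate 3 (25.4) and WTCKD + RNLS replicate 2 (16.7) stood apart from WTCKD + RNLS replicates 1 and 3 (-21.96 and -20.97). WTCKD + RNLS replicate 2 also had relatively more counts on short genes than the other libraries: its longest 20% of genes lay 0.318 below its shortest 20% in the median deviation on the log2 scale, against 0.148 and 0.225 above it in the other libraries of its group and differences of -0.1 to 0.032 in WTCKD. The sequencer (the methods name 2 models as alternatives), the day of collection and the hour of killing are not given for single libraries. Their share in any difference thus cannot be told apart from that of the virus.

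With edgeR's quasi-likelihood test and Benjamini-Hochberg adjustment over all 12573 genes, 585 genes passed an adjusted p of 0.05 (called from here on), which is 4.65% of those tested. Of these, 278 were higher in WTCKD + RNLS (2.21% of tested genes) and 307 were lower (2.44%). All 3 libraries of one group lay above all 3 of the other in 578 of the 585, and in 21.3% of all tested genes. In 54 tested genes only 1 of the groups held libraries with at least 10 counts, and 11 of these genes were called. Such genes passed the filter only through the group where they were high. Most changes were small, with a median size of 0.64 on the log2 scale among called genes, and only 46 rises and 88 falls exceeded 1. At the study's cut-offs of a small minimum fold change and an unadjusted p under 0.05, applied here to edgeR's p-values, 1805 genes (14.4% of those tested) were called. The study itself took its p-values from the DESeq package. The number of calls rested on single libraries, since it fell to 212 without WTCKD replicate 2, 283 without WTCKD + RNLS replicate 1, 290 without WTCKD replicate 1 and 299 without WTCKD + RNLS replicate 3, although each of the 585 kept its sign in every such fit. Removing each library's trend on gene length, on which WTCKD + RNLS replicate 2 stood apart, turned the split into 529 higher and 287 lower genes and moved the median of all genes from 0.01 to 0.07.

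**Figure D1:**
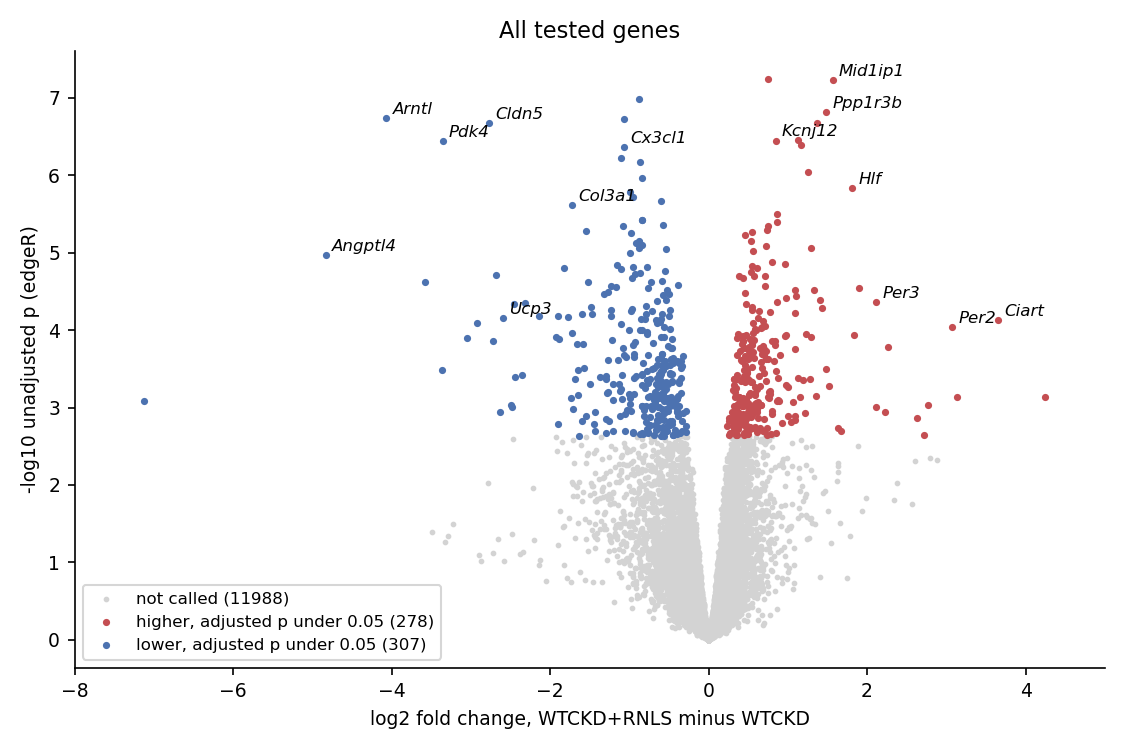
Each dot is 1 of the 12573 tested genes, placed by its log2 fold change (WTCKD + RNLS minus WTCKD) and by the -log10 of its unadjusted p from edgeR. The 278 genes called higher are red and the 307 called lower are blue, with Ciart and Per2 at the far right and Angptl4, Arntl and Pdk4 among the falls of largest size.

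In the treated hearts 3 of 7 clock activators were called lower, and 6 of 10 repressors and 5 of 13 output genes were called higher. Arntl, whose product is the partner of CLOCK and NPAS2, had 30.5, 30.8 and 34.0 CPM (counts scaled to a common library size) in WTCKD and 1.33, 1.85 and 2.45 in WTCKD + RNLS. The groups were thus far apart, with a log2 fold change of -4.06 ± 0.46 (SE) and an edgeR adjusted p of 0.000334. Npas2, which can stand in for CLOCK, went from 9.14, 10.9 and 9.61 CPM to 3.17, 2.13 and 2.45 (-1.93 ± 0.38, adjusted p = 0.00999). Clock went from 57.4, 59.3 and 60.3 CPM to 38.1, 32.3 and 39.5 (-0.68 ± 0.15, adjusted p = 0.0158). These were the 3 called members of the 7 tested clock activators, all lower, and the list's median log2 fold change was -0.50 against 0.01 over all tested genes. This median ranged from -0.74 (without WTCKD + RNLS replicate 3) to -0.30 (without WTCKD + RNLS replicate 1) over the leave-one-out fits. Arntl2 and the receptors Rora and Rorb had changes between -0.50 and 0.10 with overlapping groups. Arntl and Npas2 were called in all 6 fits that left out a library, and Clock lost its call without WTCKD replicate 2 (adjusted p = 0.0554).

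Of the 10 clock repressors, 6 were called higher and none lower, with a median log2 fold change of 0.82. Ciart, a repressor of CLOCK and ARNTL also called CHRONO, had 1.27, 1.66 and 1.53 CPM in WTCKD and 22, 17.1 and 17 in WTCKD + RNLS, which was the largest rise among the genes named by rule (3.65 ± 0.69, adjusted p = 0.00762). Per2 rose from 6.68, 4.78 and 6.29 CPM to 62.8, 34.4 and 52.5 (3.07 ± 0.59, adjusted p = 0.0087) and Per3 from 11.5, 9.11 and 12.8 to 52.9, 36.6 and 55.1 (2.11 ± 0.38, adjusted p = 0.00609). No treated heart overlapped a WTCKD heart in these genes, and WTCKD + RNLS replicate 2 was the lowest of the treated hearts in both Per genes. Bhlhe41 (DEC2) changed by 0.88 ± 0.21, Nr1d2 (REV-ERB beta) by 0.77 ± 0.18 and Cry2 by 0.73 ± 0.20, and all 3 were called, although each lost its call in 4 or 5 of the 6 leave-one-out fits (highest adjusted p of 0.113, 0.0867 and 0.18) and Cry2 also with the replicate block (0.0628). The calls of Ciart, Per2 and Per3 were kept in all 6.

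The remaining members did not pass the test. Per1 had 49.1, 61.1 and 54.3 CPM against 103, 87.1 and 111 (0.87 ± 0.35, adjusted p = 0.168), and Cry1 had 14.7, 14 and 13 against 18.7, 24.5 and 20.3 (0.60 ± 0.21, adjusted p = 0.117). In both genes the groups did not overlap. Nr1d1 (REV-ERB alpha), a repressor of Arntl, was the only member with a value below 0 (-0.46 ± 0.36, adjusted p = 0.515), at 95.3, 136 and 150 CPM against 115, 58.6 and 103, and its groups overlapped.

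Among 13 clock output genes, 5 were called higher and none lower, with a median of 0.58. The 3 PAR bZIP factors, which bind D-boxes, were all among them. Dbp had 20.2, 34.1 and 29.8 CPM in WTCKD and 140, 127 and 129 in WTCKD + RNLS (2.23 ± 0.56, adjusted p = 0.0324). Tef had 96.6, 95.2 and 92.5 against 267, 255 and 245 (1.43 ± 0.26, adjusted p = 0.0067), and Hlf had 19.5, 20.3 and 13.3 against 78.5, 47.3 and 60.8 (1.81 ± 0.24, adjusted p = 0.00102). In Tef the spread within each group was small beside the gap between them. Wee1, a kinase that holds cells before mitosis, rose by 1.40 ± 0.25 and Usp2, a deubiquitinase under clock control, by 0.97 ± 0.19. Per length of transcript (FPKM), Dbp and Tef were the most abundant of these genes in treated hearts, at 51.1 ± 4.18 and 40.1 ± 2.38 (SD, n = 3), whereas Ciart, Per2 and Per3 reached only 7.60 ± 1.33, 7.92 ± 2.49 and 6.84 ± 1.61. Dbp lost its call without any 1 library other than WTCKD + RNLS replicate 2 (adjusted p up to 0.134) and with the replicate block (0.0509), whereas Hlf, Tef, Wee1 and Usp2 kept theirs. Nfil3, Klf9, Klf10, Klf15, Por and Mtss1 had overlapping groups and changes between -0.41 and 0.20.

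**Figure D2:**
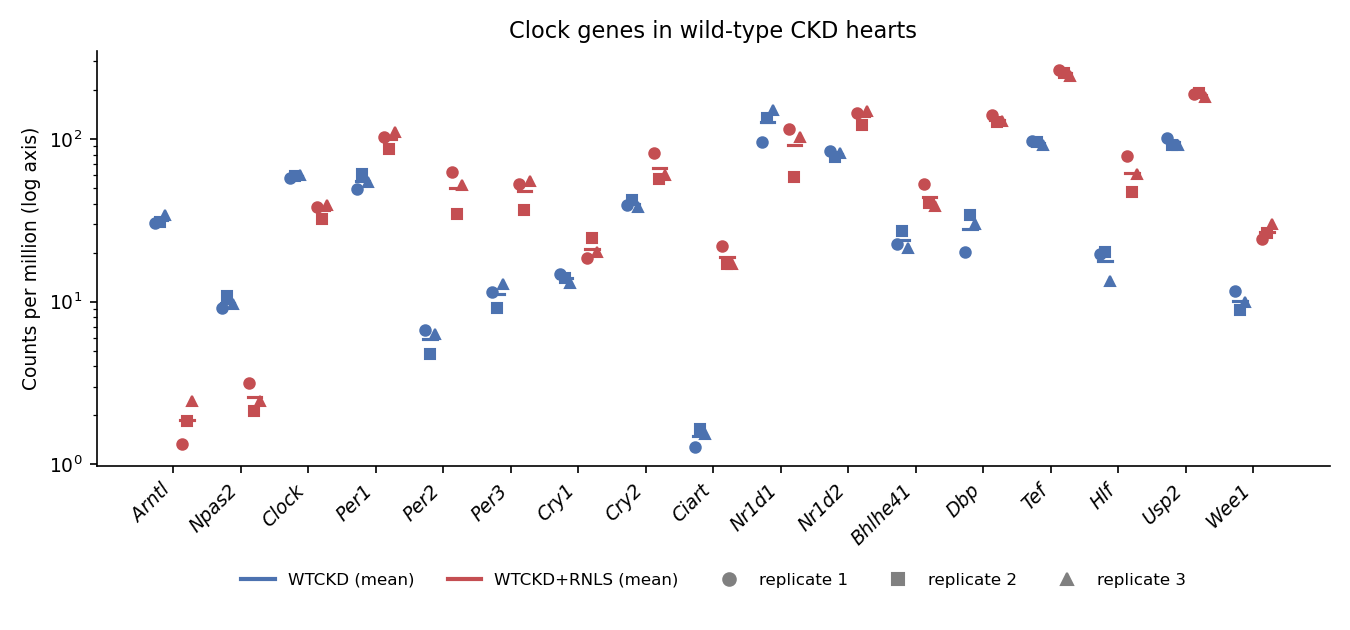
CPM on a log axis of 17 clock genes in each WTCKD (blue) and WTCKD + RNLS (red) heart, with symbols for the replicate and a bar for the group mean. Arntl, Npas2 and Clock lie lower in all 3 treated hearts, the PER genes, Ciart, Dbp, Tef and Hlf lie higher, and Nr1d1 is the gene in which the groups overlap.

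Clock levels also varied among sham-operated hearts. In WTSHAM, Arntl had 7.67, 21.4 and 32.7 CPM, Per2 had 33.9, 5.20 and 4.65, and Ciart had 9.42, 1.66 and 0.516, so that replicate 1 had the lowest Arntl and the highest Per2 and Ciart of its group. The hour of killing was not given for any heart, and its part in the clock result was not tested.

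Promoter sequences of clock genes are shown for the members whose change was called and whose promoter held the motif most often or, for Tef, in the list of outputs. They come from RefSeq (GRCm38.p6) and run 5' to 3' along the gene's own strand, with the E-box CACGTG or the D-box TTATGTAA in capitals. The files themselves give symbols only, so these coordinates belong to the reference and not to the counting. The window of Ciart (chr3:95882249-95882368, minus strand) holds 3 E-boxes, that of Per3 (chr4:151044788-151044907, minus strand) holds 2 D-boxes, and that of Tef (chr15:81802486-81802605, plus strand) holds 1 E-box.
Ciart: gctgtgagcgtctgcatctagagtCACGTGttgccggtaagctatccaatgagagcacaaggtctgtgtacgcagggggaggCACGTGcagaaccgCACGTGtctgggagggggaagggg
Per3: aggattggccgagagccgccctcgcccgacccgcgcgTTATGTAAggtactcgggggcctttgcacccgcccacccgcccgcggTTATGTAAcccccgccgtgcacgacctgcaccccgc
Tef: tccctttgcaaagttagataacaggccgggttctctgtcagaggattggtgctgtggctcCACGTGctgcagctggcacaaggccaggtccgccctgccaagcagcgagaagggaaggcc

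Both strands were searched over 250 bases before and 50 bases after each start. The E-boxes of Ciart begin 116, 58 and 44 bases before the start, the D-boxes of Per3 begin 205 and 158 bases before it, and the E-box of Tef 127 bases before it. An E-box was present in 4 of 8 clock repressors with a promoter in the table (Per1, Cry1, Ciart and Bhlhe41), in 3 of 10 outputs (Tef, Klf15 and Tspan4) and in 0 of 6 activators, against 8.09% of all 27025 genes and 11.7% of the 10029 tested genes that matched. A D-box was present in Per3 alone among these lists, against 1.11% of all genes. A match is a description of the letters in this window only. Both called and uncalled genes are among those with an E-box, since Per1, Cry1, Klf15 and Tspan4 did not pass the test.

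Of 30 tested collagen chains in 3 lists, 10 were called lower and none higher. Among the fibrillar collagens, which form the tensile fibres of scar and interstitium, 4 of 8 were called lower and the median log2 fold change was -0.64. Col3a1 had 239, 303 and 239 CPM in WTCKD and 67.1, 77.6 and 92.3 in WTCKD + RNLS, a change of -1.72 ± 0.24 (edgeR adjusted p = 0.00139). Col5a3 went from 22.2, 29.996 and 34.9 CPM to 10.8, 5.47 and 12.5 (-1.59 ± 0.30, adjusted p = 0.00718). Both had groups well apart and were called in all 6 leave-one-out fits. Col1a1 (121, 166 and 124 CPM against 58.8, 66.3 and 87.8) and Col5a2 (34.5, 42.3 and 33.7 against 23.2, 16.1 and 24.4) changed by -0.95 ± 0.26 and -0.79 ± 0.21, but each lost its call without any 1 library (adjusted p of 0.0568 to 0.184 and 0.0508 to 0.152). Their adjusted p with the replicate block was 0.0717 and 0.0605. Col1a2, the partner chain of Col1a1, did not pass (129, 167 and 119 CPM against 103, 87.2 and 104, adjusted p = 0.139).

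The network-forming collagens build basement membranes (type IV) and the microfibrils around cells (type VI). Of 13 tested, 5 were called lower and none higher, with a median of -0.69. Col4a1 had 496, 584 and 684 CPM against 288, 264 and 370 (-0.93 ± 0.16, adjusted p = 0.00403), and its chain partner Col4a2 had 414, 495 and 607 against 275, 254 and 354 (-0.78 ± 0.15, adjusted p = 0.00963). Per length, Col4a1 was the more abundant of the collagens named here, with 89.5 ± 13.04 FPKM in WTCKD (SD, n = 3) and 44.8 ± 8.92 in WTCKD + RNLS, against 47.3 ± 7.88 and 13.6 ± 2.24 for Col3a1 and 23.4 ± 4.86 and 11.5 ± 2.54 for Col1a1. All 3 main chains of type VI were called lower, Col6a1 by -0.69 ± 0.17, Col6a2 by -0.80 ± 0.19 and Col6a3 by -0.65 ± 0.17, and they lost the call in 4, 3 and 5 of the 6 leave-one-out fits (highest adjusted p of 0.107, 0.0852 and 0.151), and Col6a3 also with the replicate block (0.0635). Col15a1, a basement-membrane collagen and the 1 called of 9 other collagens, changed by -0.99 ± 0.24 and lost its call in 5 fits (adjusted p up to 0.113). Col4a5, at 34.1 CPM on average in WTCKD and 39.3 in WTCKD + RNLS, did not follow the other type IV chains (0.21 ± 0.14, adjusted p = 0.436).

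The proteins that process and organise collagen gave fewer calls. Loxl1, which crosslinks elastin and collagen, had 49.8, 69.7 and 46.1 CPM against 32.5, 28.1 and 31.9 (-0.84 ± 0.16, adjusted p = 0.00899). Sparc, a collagen-binding matricellular protein, had 422, 497 and 455 CPM against 210, 264 and 276 (-0.87 ± 0.13, adjusted p = 0.00246). The groups did not overlap in either gene, and both calls were kept without each library. Of 20 collagen-processing enzymes 2 were called lower (Loxl1 and Adamts2) and none higher, with a median of -0.25, and Adamts2 lost its call in 5 of the 6 leave-one-out fits (adjusted p up to 0.182). Among 25 genes of small proteoglycans and elastic fibres 3 were called lower (Fbn1, Ltbp4 and Efemp1), with a median of -0.40, and Ltbp4 and Efemp1 lost their calls in 2 and 4 of those fits (adjusted p up to 0.077 and 0.132). Fbn1, the fibrillin of elastic microfibrils, fell by 1.22 on the log2 scale (84.6, 126 and 100 CPM against 45.9, 33.4 and 54.0), and lost its call without WTCKD replicate 2 (adjusted p = 0.0532). Of 15 laminins and linkers 2 were called lower (Sparc and Nid2, which links laminin to collagen IV, -0.66 ± 0.12) and 1 higher (Lamb3, lost in 4 fits, adjusted p up to 0.148), and the median was -0.11. Of 20 integrins, the receptors for these proteins, Itga6 alone was called (-0.68 ± 0.16, lost in 4 of the 6 fits, adjusted p up to 0.0978), with a median of -0.19. This is near the share of all tested genes that were called (4.65%).

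Among 20 matricellular and activated fibroblast genes, Meox1 and Postn were called lower and none higher, while 4.65% of all tested genes were called. The list's median was -0.61, and -0.26 without WTCKD replicate 2. Meox1, a transcription factor of activated fibroblasts, had 16.8, 27.3 and 18.96 CPM against 7.001, 5.56 and 8.79 (-1.55 ± 0.23, adjusted p = 0.00213). Postn (periostin), a mark of activated fibroblasts, had 69.2, 103 and 44.2 CPM against 30.8, 23.5 and 34.9, with groups apart by a small margin (-1.27 ± 0.27, adjusted p = 0.0138), and lost its call without WTCKD replicate 2 or WTCKD + RNLS replicate 1 (adjusted p up to 0.0735). Acta2, which encodes alpha-smooth muscle actin, had 129, 130 and 238 CPM against 147, 187 and 130 and did not pass (-0.10 ± 0.37, adjusted p = 0.913). Ccn2 (connective tissue growth factor) and Fn1 (fibronectin) did not pass either, at -0.48 ± 0.25 and -0.29 ± 0.20 with overlapping groups.

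Of 25 matrix proteases and inhibitors, Mmp14 and Adamts4 were called lower and Timp3 higher, while 4.65% of all tested genes were called. Adamts4 had raw counts of 16, 32 and 24 in WTCKD and 3, 0 and 3 in WTCKD + RNLS. It thus passed the filter only through the group where it was high, and its fall rests on few counts. Mmp14, a membrane-bound collagenase, had 33.7, 39.1 and 35.9 CPM against 21.3, 14.2 and 15.7 (-1.08 ± 0.16, adjusted p = 0.00197). Timp3, an inhibitor of these proteases, had 292, 344 and 260 CPM against 530, 406 and 507 (0.69 ± 0.14, adjusted p = 0.0113), and lost its call without WTCKD + RNLS replicate 1 (adjusted p = 0.0522). In both genes the groups did not overlap. In the TGF-beta pathway, which drives collagen synthesis in fibroblasts, 2 of 26 genes were called lower and 1 higher, with a median of -0.06. The ligand Tgfb1 had 47.3, 56.5 and 49.99 CPM against 36.3, 35.1 and 31.1 (-0.59 ± 0.11, adjusted p = 0.00718) and its signal transducer Smad3 had 31.4, 32.3 and 27.1 against 18.8, 17.0 and 21.9 (-0.65 ± 0.12, adjusted p = 0.00808). The receptor Bmpr1a was the call in the other direction (0.34 ± 0.08), and it was lost in 4 of the 6 leave-one-out fits (adjusted p up to 0.0904).

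**Figure D3:**
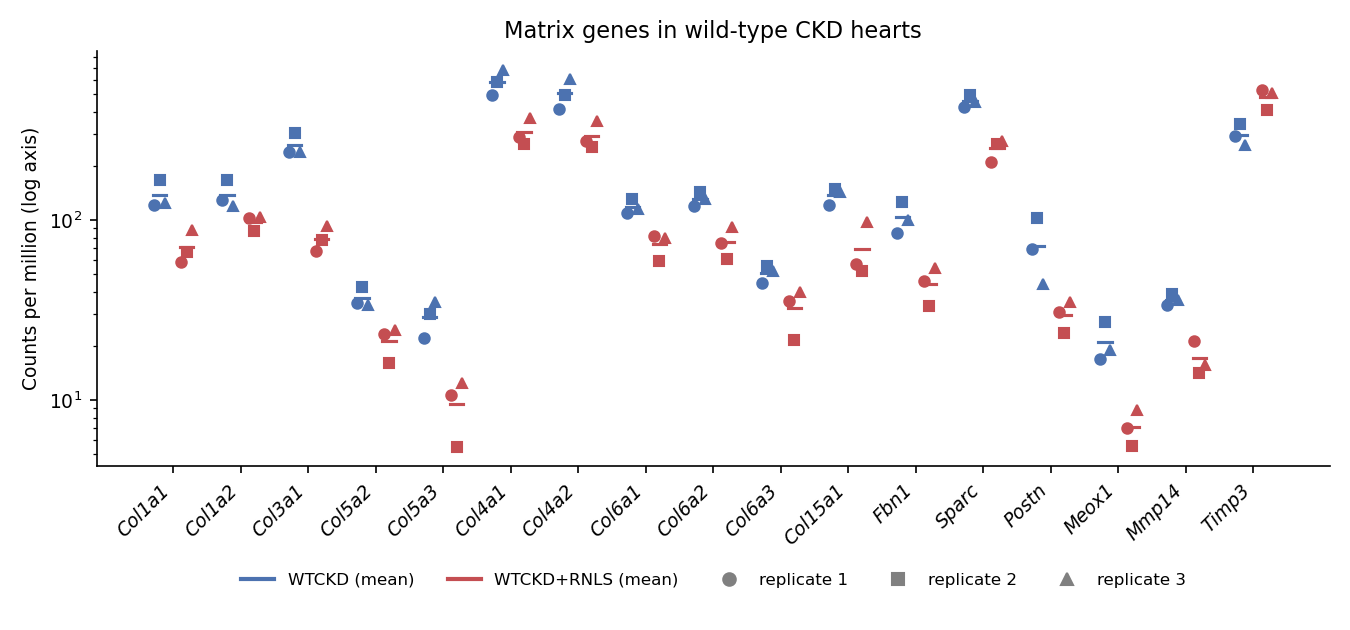
CPM on a log axis of 17 matrix genes in each WTCKD (blue) and WTCKD + RNLS (red) heart, with symbols for the replicate and a bar for the group mean. Col3a1 lies at 239 to 303 in WTCKD and at 67.1 to 92.3 after the virus, and Timp3 is the 1 gene of the plot with higher treated values.

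In sham-operated hearts Col3a1 had 187, 395 and 373 CPM and Col1a1 had 112, 254 and 177. The WTCKD values of both genes thus lay within the range of the sham-operated hearts, and the WTCKD + RNLS values lay below it.

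Summed CPM of cell type markers, relative to all counted reads of a library, were set beside the matrix result. The fibroblast markers summed to 2764, 3602 and 2053 in WTCKD and 2200, 1583 and 2410 in WTCKD + RNLS, so the groups overlapped, and 2 of the 7 tested were called lower (Col1a1, which is a member of the collagen list as well, and Dpt, lost in 5 of the 6 fits with an adjusted p up to 0.156). The markers of activated fibroblasts summed to 234, 307 and 301 CPM against 188, 205 and 180, without overlap. All 5 tested had values below 0 (median -1.27 on the log2 scale), and 2 were called lower. The part of both marker lists in the collagen result was not tested. Cardiomyocyte markers summed to 68710, 67170 and 74020 against 80030, 73980 and 77730, with 0 of 6 called by edgeR or DESeq2 and 2 at an unadjusted p under 0.05.

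The 6 endothelial markers summed to 1299, 1257 and 1360 CPM in WTCKD and 919, 821 and 904 in WTCKD + RNLS, without overlap, and 4 of them were called lower. Pecam1, an adhesion molecule of endothelial junctions, had 256, 251 and 261 CPM against 176, 171 and 177 (-0.55 ± 0.09, edgeR adjusted p = 0.0039). Cdh5 (VE-cadherin) had 331, 313 and 374 against 249, 225 and 247 (-0.50 ± 0.09, adjusted p = 0.00736), and Kdr, the VEGF receptor, had 423, 379 and 462 against 275, 276 and 289 (-0.59 ± 0.12, adjusted p = 0.0131). The treated hearts varied little among themselves in all 3 genes. The 4th, Emcn, changed by -0.61 ± 0.12 and lost its call without WTCKD replicate 2 (adjusted p = 0.0512). Tie1 and Esam did not pass, at -0.21 ± 0.11 and -0.26 ± 0.08.

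In the wider list of 34 endothelial and angiogenic genes 8 were called lower and none higher, with a median of -0.25 and 10 values above 0. The largest change was in Cldn5 (claudin 5), the tight-junction protein of vessels, with 17.3, 51.3 and 47.9 CPM in WTCKD against 6.25, 5.84 and 4.89 (-2.78 ± 0.32, adjusted p = 0.000334). WTCKD replicate 1 was the lowest of its group and still lay above every treated heart. In sham-operated hearts Cldn5 had 16.1, 19.4 and 17.9 CPM. The peptide Apln and its receptor Aplnr, which act in vessel growth, changed by -0.81 ± 0.21 and -1.43 ± 0.36, with the call lost in 4 and in all 6 of the leave-one-out fits (adjusted p up to 0.144 and 0.108). Flt1 and Sox17 had values in the other direction that did not pass (0.35 ± 0.12 and 0.46 ± 0.15, adjusted p = 0.103 and 0.104). Cx3cl1 (fractalkine), a chemokine displayed by endothelium, had 20.6, 24.0 and 22.6 CPM against 10.2, 10.5 and 11.3 (-1.07 ± 0.13, adjusted p = 0.000414). It was 1 of 2 called lower, with Cxcl14 (lost in 4 leave-one-out fits, adjusted p up to 0.0881), among 21 chemokines and receptors (median -0.45). Over all tested genes the called share was 4.65%.

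**Figure D4:**
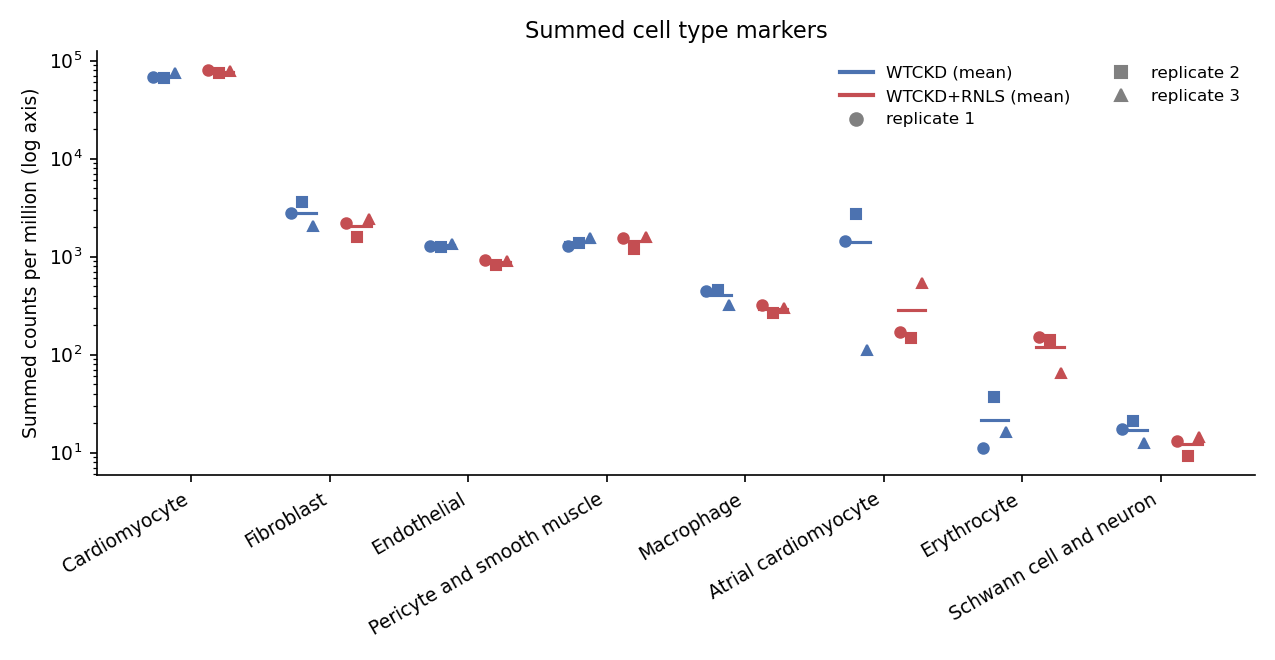
Summed CPM, on a log axis, of the markers of 8 cell types in each WTCKD (blue) and WTCKD + RNLS (red) heart, with symbols for the replicate and a bar for the group mean. Endothelial sums do not overlap (1257 to 1360 against 821 to 919), erythrocyte sums are higher in all treated hearts, and atrial sums overlap, with WTCKD replicate 3 at 111 against 1435 and 2726 in the other WTCKD hearts.

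Genes of fuel selection held some of the largest falls. Targets of the PPAR receptors, which adjust the heart to fatty acids, gave 5 lower and 1 higher calls of 24, with a median of -0.21 that ranged from -0.28 to -0.078 over the leave-one-out fits (the latter without WTCKD replicate 3). Pdk4, the kinase that shuts off pyruvate dehydrogenase, had 753, 517 and 1346 CPM in WTCKD and 102, 77.1 and 76.5 in WTCKD + RNLS (-3.36 ± 0.40, adjusted p = 0.000414). Angptl4, a secreted inhibitor of lipoprotein lipase, had 13.5, 6.90 and 35.1 CPM against 1.0001, 0.649 and 0.306 (-4.83 ± 0.77, adjusted p = 0.00297), and Ucp3, a mitochondrial carrier, had 86.0, 48.3 and 149 against 25.0, 13.3 and 8.64 (-2.59 ± 0.49, adjusted p = 0.0076). In all 3 genes WTCKD replicate 3 was the highest heart, and the groups did not overlap. Without any 1 library the calls were kept, with log2 changes of -3.62 to -2.90, -5.29 to -3.98 and -3.11 to -2.11. Txnip, an inhibitor of thioredoxin and of glucose uptake, had 861, 1098 and 1389 CPM against 556, 406 and 429 (-1.27 ± 0.22, adjusted p = 0.00509). The PPAR target Mlycd, malonyl-CoA decarboxylase, changed by -0.46 ± 0.12 (adjusted p = 0.0379), but lost its call in 4 leave-one-out fits (adjusted p up to 0.143), with DESeq2, with the replicate block (0.0633), with length offsets and with only the 6 libraries.

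The receptor gene Ppara itself was higher (96.7, 98.6 and 106 CPM against 134, 132 and 163, 0.51 ± 0.11, adjusted p = 0.0136), with the call lost in 3 of the 6 leave-one-out fits (adjusted p up to 0.0637). Other members of the list did not pass, among them Cd36, the fatty acid transporter (-0.24 ± 0.08), and Lpl, lipoprotein lipase (-0.01 ± 0.09). None of the 18 enzymes of mitochondrial fatty acid oxidation, 25 genes of glucose uptake and glycolysis, 37 subunits of complex I and 42 of complexes II to V was called by edgeR, with medians of 0.17, 0.14, 0.12 and 0.12. At an unadjusted p under 0.05 these lists had 2, 4, 1 and 1 members, all higher, and DESeq2 called 2 of the glycolysis list (Pgam1 and Slc16a1) and 0 of the others. Acadm, an acyl-CoA dehydrogenase, had 1490.4, 1376 and 1556 CPM against 1557, 1868 and 1554, and the groups overlapped. Ppp1r3b, a subunit that directs a phosphatase to glycogen, had 22.2, 21.1 and 19.0 CPM against 65.5, 49.6 and 59.2 (1.49 ± 0.17, adjusted p = 0.000334). Mid1ip1, a regulator of acetyl-CoA carboxylase in lipid synthesis, had 86.9, 93.3 and 78.5 against 258, 270 and 238 (1.57 ± 0.16, adjusted p = 0.000334). Both were called without each library.

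Calls among contractile and electrical genes were mostly rises. Of 23 sarcomere and Z-disc genes 2 were called higher (Ttn and Tcap) and none lower, with a median of 0.17. Ttn (titin), the spring of the sarcomere, had 3907, 3791 and 4882 CPM against 6219, 5553 and 7264 (0.60 ± 0.12, adjusted p = 0.00899), without overlap. Tcap, which caps titin at the Z-disc, changed by 0.85 ± 0.23 but lost its call without any 1 library (adjusted p of 0.0724 to 0.161) and with the replicate block (0.0688). Among 24 potassium and sodium channel genes 3 were called higher and 1 lower, with a median of 0.03, while 4.65% of all tested genes were called. Kcnj12, an inward rectifier that holds the resting potential, had 36.2, 35.6 and 32.2 CPM against 67.8, 55.1 and 64.2 (0.85 ± 0.10, adjusted p = 0.000414). Kcnh2, the channel of a repolarising current, rose as well (0.54 ± 0.13), and the sodium channel subunit Scn4b was lower (55.2, 53.6 and 73.5 CPM against 13.4, 44.8 and 30.3, -1.05 ± 0.27). Kcnh2 and Scn4b each lost the call in 4 leave-one-out fits (adjusted p up to 0.136 and 0.101). Of 18 calcium-handling genes Cacnb2, a calcium channel subunit, was the 1 call (0.55 ± 0.09, adjusted p = 0.00368), near the share of all tested genes.

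Of 19 genes of hypertrophy and the fetal program, Rcan1 alone was called, near the share of all tested genes (4.65%). Rcan1, a target and inhibitor of calcineurin, had 149, 143 and 122 CPM against 74.6, 93.2 and 81.0 (-0.73 ± 0.12, adjusted p = 0.00437). Nppb, which encodes the natriuretic peptide BNP, had 150, 163 and 110 CPM against 76.2, 176 and 149 (-0.08 ± 0.26, adjusted p = 0.907). Myh7, the fetal myosin heavy chain, had 258, 381 and 222 against 713, 184 and 742 (0.93 ± 0.67, adjusted p = 0.484), and Acta1, skeletal actin, had 465, 593 and 520 against 79.3, 698 and 435 (-0.38 ± 0.61, adjusted p = 0.79). The treated hearts spread widely in these genes and overlapped WTCKD. Nppa, which encodes ANP and is also a marker of atrial muscle, had 363, 1175 and 80.6 CPM against 105, 117 and 231 and did not pass (-1.84 ± 0.80, adjusted p = 0.207). The 8 atrial markers, of which Nppa is 1, summed to 1435, 2726 and 111 CPM in WTCKD and 171, 148 and 538 in WTCKD + RNLS. All 7 tested, Nppa among them, had values below 0, with 0 called by edgeR or DESeq2 (3 at an unadjusted p under 0.05). In each group the heart with the most Nppa also had the highest sum (WTCKD replicate 2 and WTCKD + RNLS replicate 3). Nppa is part of these sums and was not taken out of them. The share of atrial tissue in the Nppa values was not tested.

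Among catecholamine receptors and enzymes, which bear on the activity first described for renalase, 0 of 13 were called by edgeR, with a median of 0.02, 4 had an unadjusted p under 0.05 (1 higher, 3 lower) and DESeq2 called 1 (Grk5, a receptor kinase). The groups did not overlap in 8 of the 13, against 21.3% of all tested genes, and the dopamine receptor Drd2, which is outside the list, was called higher (values are given with the largest rises). Maob, a monoamine oxidase, had 101, 99.1 and 102 CPM against 75.0, 102 and 85.3 (-0.20 ± 0.10, adjusted p = 0.279). Of 18 genes of NAD synthesis and sirtuins 1 was called, near the share of all tested genes (4.65%). It was Cd38, an enzyme that consumes NAD (19.7, 17.2 and 16.1 CPM against 11.2, 12.7 and 12.7, -0.54 ± 0.15, adjusted p = 0.0463). This call was lost without any 1 library (adjusted p of 0.0508 to 0.178), with the replicate block (0.0596) and in 4 other alternative fits. Of 12 renin-angiotensin-aldosterone genes none was called by edgeR, with a median of -0.04, 4 had an unadjusted p under 0.05 and DESeq2 called 1 (Agtr1a, the angiotensin receptor). Ace had 114, 128 and 104 CPM against 97.0, 74.6 and 92.3 (-0.39 ± 0.14, adjusted p = 0.13).

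Immune lists gave few calls. None of 38 interferon response genes, 15 virus-sensing genes, 17 MHC class I genes and 8 MHC class II genes was called by edgeR. At an unadjusted p under 0.05 these lists had 1, 2, 4 and 5 members, all lower, and DESeq2 called 0, 0, 1 (B2m) and 4 (H2-Aa, H2-Ab1, H2-Eb1 and Cd74). The class II genes, which present antigen on macrophages and dendritic cells, had the lowest median of the 42 lists (-0.71), with all 8 below 0. In 7 of the 8 the groups did not overlap, against 21.3% of all tested genes. Cd74, their chaperone, had 182, 182 and 138 CPM against 105, 88.4 and 102 (-0.77 ± 0.26, adjusted p = 0.108), and H2-Aa had 61.8, 66.3 and 55.2 against 34.8, 32.0 and 35.8 (-0.84 ± 0.31, adjusted p = 0.143). Macrophage markers summed to 441, 456 and 322 CPM in WTCKD and 318, 264 and 297 in WTCKD + RNLS, with 0 of 7 called by edgeR, 5 at an unadjusted p under 0.05 and 3 called by DESeq2 (Adgre1, Csf1r and Mrc1), all lower, and their part in the class II values was not tested. Of 19 complement genes 1 was called, near the share of all tested genes (4.65%). It was C7, a component of the membrane attack complex (36.4, 39.8 and 26.7 CPM against 10.7, 13.2 and 17.4, -1.32 ± 0.23, adjusted p = 0.00522).

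Cell cycle genes gave 4 lower and 0 higher calls of 30, with a median of -0.53, and 2 of the 4 do not mark division as such. Cdkn1a, which encodes the cell cycle inhibitor p21, had 62.3, 78.8 and 56.9 CPM against 20.5, 22.6 and 27.7 (-1.48 ± 0.27, adjusted p = 0.00668), and Ccnd1 (cyclin D1) had 90.9, 112 and 116 against 67.5, 73.9 and 69.6 (-0.60 ± 0.11, adjusted p = 0.00761). Top2a, a topoisomerase of dividing cells, had 3.64, 5.70 and 4.51 CPM against 0.833, 2.13 and 1.22 (-1.73 ± 0.42, adjusted p = 0.0256), and Mcm3, a replication licensing factor, changed by -0.63 ± 0.16. The calls of Top2a and Mcm3 were lost in 4 and 5 of the 6 leave-one-out fits (adjusted p up to 0.106 and 0.115). Mki67 (7.19, 10.2 and 10.8 CPM against 2.58, 4.63 and 2.22) and Cdk1 did not pass (adjusted p = 0.14 and 0.0548).

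Glucocorticoid-responsive genes gave 3 higher and 1 lower calls of 15, with a median of 0.55, and Cdkn1a is counted here as well. Pik3r1, a regulatory subunit of PI3-kinase, had 93.0, 92.9 and 87.4 CPM against 240, 169 and 204 (1.17 ± 0.14, adjusted p = 0.000414). Zbtb16, a transcription factor induced by steroids, had 70.2, 35.8 and 43.3 against 169, 109 and 152 (1.52 ± 0.35, adjusted p = 0.0209), with the call lost in 4 leave-one-out fits (adjusted p up to 0.0978). Fkbp5, a co-chaperone of the receptor, did not pass (14.97, 19.5 and 18.4 CPM against 69.0, 29.0 and 32.7, adjusted p = 0.0594). In the list of FoxO and muscle atrophy genes 2 were called lower and 2 higher of 18. The muscle ubiquitin ligases Fbxo32 (266, 242 and 263 CPM against 182, 171 and 190, -0.50 ± 0.09, adjusted p = 0.00522) and Trim63 (346, 297 and 298 against 239, 223 and 224, -0.46 ± 0.10, adjusted p = 0.0179) were the falls, and Trim63 lost its call without WTCKD replicate 1 or WTCKD + RNLS replicate 3 (adjusted p up to 0.0886). The rises were Foxo3 and Eif4ebp1 (0.52 ± 0.13 and 0.44 ± 0.11), with calls lost in 4 and 5 fits (adjusted p up to 0.129 and 0.111).

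The stress lists held scattered calls, to be read beside the 4.65% of all tested genes that were called. Of 20 unfolded protein response genes Ddit3 (CHOP) and Herpud1 were called higher (0.70 ± 0.15 and 0.75 ± 0.18), and Herpud1 lost its call in 5 leave-one-out fits and Ddit3 in 2 (adjusted p up to 0.112 and 0.0565). Of 28 antioxidant genes Gsta3, a glutathione transferase, was called higher (9.14, 9.85 and 8.16 CPM against 20.003, 19.3 and 14.5, 0.98 ± 0.19, adjusted p = 0.0099) and Sod3, the extracellular superoxide dismutase, lower (62.3, 69.4 and 57.7 against 40.8, 46.7 and 37.5, -0.60 ± 0.13, adjusted p = 0.0136), and Sod3 lost its call in 3 leave-one-out fits (adjusted p up to 0.0739). None of 20 heat shock and cold-inducible genes and of 78 ribosomal protein genes was called by edgeR, with medians of 0.10 and 0.00. At an unadjusted p under 0.05 they had 2 and 1 members, and DESeq2 called 1 (Cirbp) and 0. Of 21 immediate early genes Ier3 and Ier5 were called higher and Myc lower, each lost in 5 leave-one-out fits (adjusted p up to 0.0792, 0.0927 and 0.0809). Among 25 sterol synthesis genes Insig1 and Hsd17b7 were called lower (-0.71 ± 0.13 and -0.84 ± 0.21), and among 14 iron genes Slc40a1 (ferroportin) and Steap4 (-0.57 ± 0.14 in both), the calls of Hsd17b7, Slc40a1 and Steap4 being lost in 4 or 5 leave-one-out fits (adjusted p up to 0.0984).

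**Figure D5:**
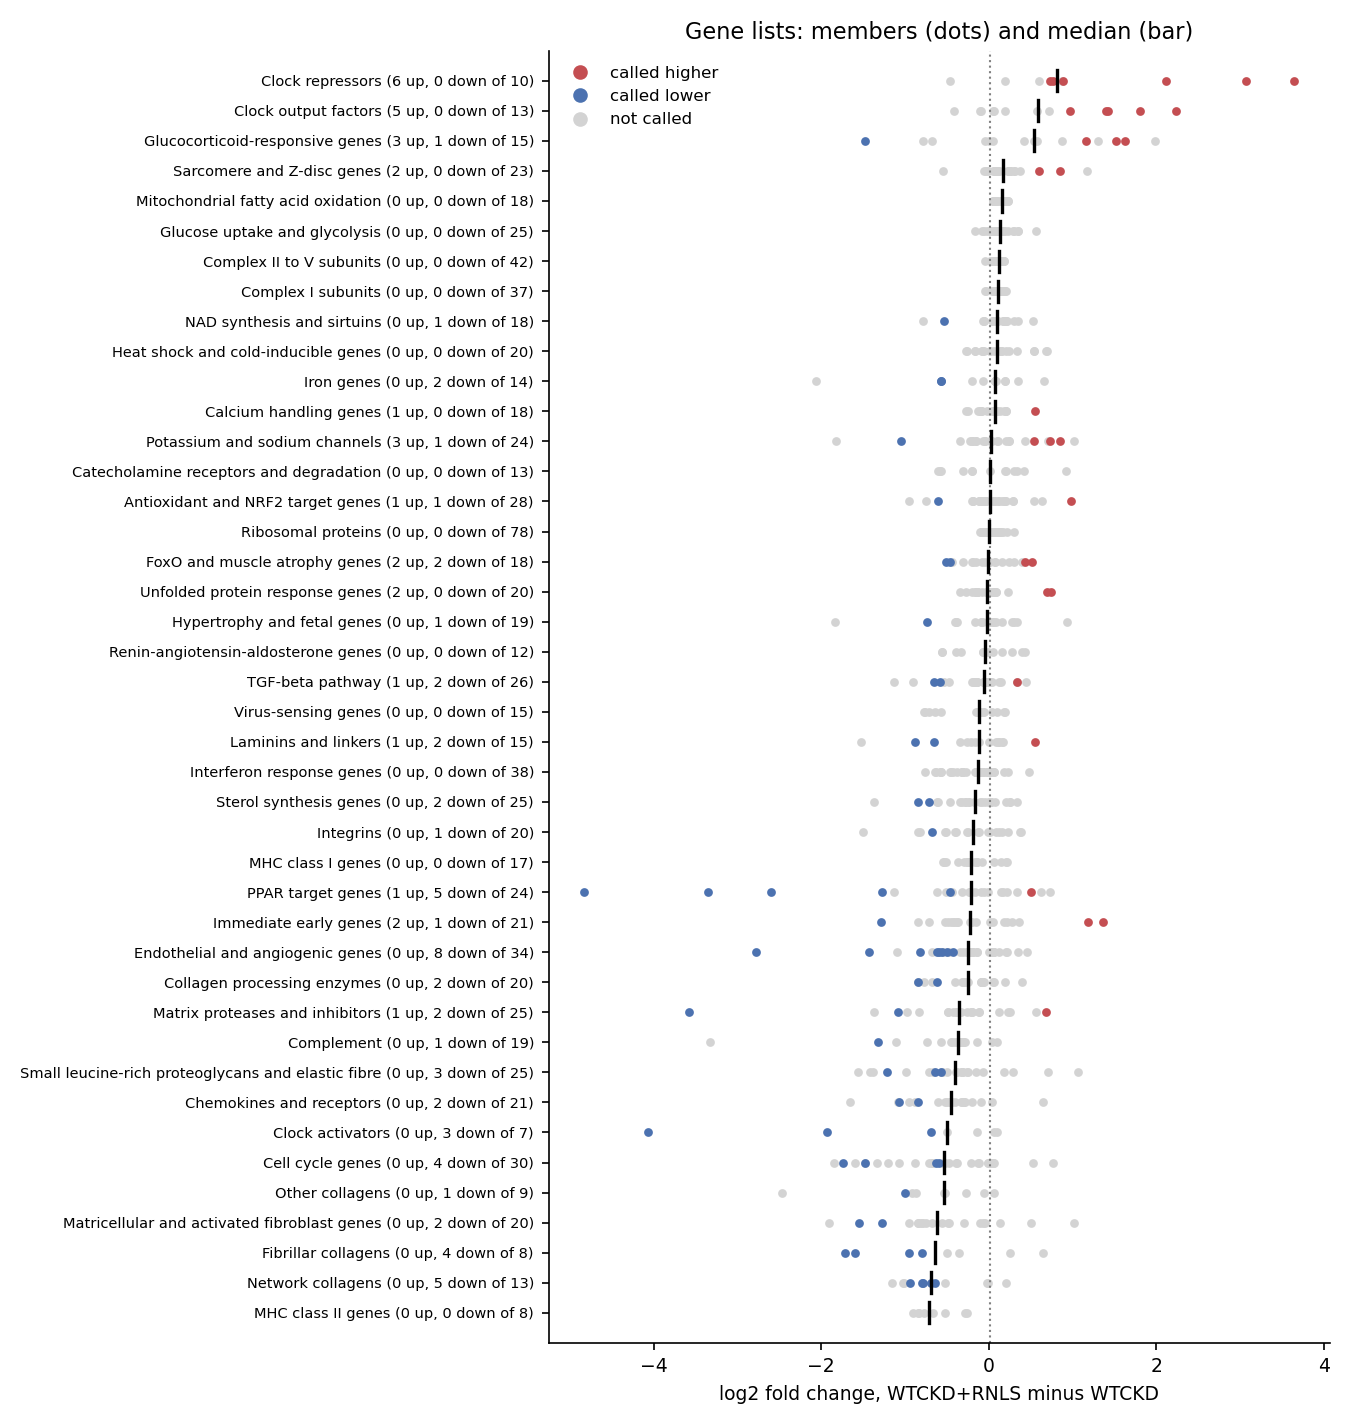
Each row is 1 of 42 gene lists, with a dot for each tested member at its log2 fold change (WTCKD + RNLS minus WTCKD), red where called higher and blue where called lower, a black bar at the list's median and a dotted line at the median of all tested genes (0.01). Clock repressors have the highest median (0.82), collagen lists lie at -0.54 to -0.69, and the MHC class II list has the lowest median (-0.71) with no call.

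Among the other genes with the largest rises were members of no list. Irx1 and Irx2, homeobox factors of the ventricle, had 8.29, 4.23 and 0.17 CPM and 4.399, 3.77 and 0.425 CPM in WTCKD against 29.4, 24.7 and 24.8 and 22.4, 15.5 and 20.5 in WTCKD + RNLS. WTCKD replicate 3 was close to 0 in both, and the calls (2.63 ± 0.68 and 2.77 ± 0.68) were lost in 4 and 5 leave-one-out fits (adjusted p up to 0.118 and 0.0809). Drd2, a dopamine receptor, had 1.10, 1.47 and 0.425 CPM against 12.8, 1.95 and 11.3 (3.13 ± 0.75, adjusted p = 0.0256). WTCKD + RNLS replicate 2 lay only just above WTCKD, and the call was lost in 5 leave-one-out fits (adjusted p up to 0.09). Abca4, a lipid transporter, rose by 2.27 ± 0.46, Rtn4r, the Nogo receptor, by 1.84 ± 0.36 and Lepr, the leptin receptor, by 1.67 ± 0.45. They lost their calls in 1 fit (without WTCKD + RNLS replicate 1, adjusted p = 0.0605), 1 fit (without WTCKD replicate 2, adjusted p = 0.0532) and 4 fits (adjusted p up to 0.22), and Lepr also with the replicate block (0.0589).

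Hbb-bs, a beta-globin chain of red cells, had 24.8, 65.2 and 27.9 CPM in WTCKD and 337, 297 and 138 in WTCKD + RNLS (2.71 ± 0.75, adjusted p = 0.0492), and the call was lost without any 1 library (adjusted p of 0.0613 to 0.176) and with the replicate block (0.0651). The 4 erythrocyte markers in the table, which do not hold this gene, summed to 11.3, 36.9 and 16.1 CPM against 151, 143 and 64.9, and 0 of the 3 tested were called by edgeR, although all 3 had an unadjusted p under 0.05 and were called by DESeq2 (Hba-a1, Hba-a2 and Alas2). The groups did not overlap in any of the 3, against 21.3% of all tested genes without overlap. The part of blood left in the tissue was not tested.

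The largest falls outside the lists were Spon2, Kcna1, Igsf23, Mbp, Sytl2, Tnfrsf19, Gm19410 and Adam19. Kcna1, a potassium channel of nerve, had 7.44, 11.3 and 6.29 CPM against 1.0001, 1.11 and 2.37 (-2.45 ± 0.44, adjusted p = 0.00627), and Mbp, the myelin basic protein, had 5.41, 7.36 and 2.81 against 1.08, 1.11 and 1.30 (-2.14 ± 0.40, adjusted p = 0.00735). The Schwann cell markers Sox10 and S100b did not pass, with Sox10 at 2.79, 4.23 and 1.62 CPM against 1.08, 0.463 and 1.38 (adjusted p = 0.0659) and S100b at 2.71, 2.67 and 2.38 against 0.833, 0.185 and 1.53 (adjusted p = 0.0773). Of the 5 tested markers of Schwann cells and neurons, 4 had values below 0 and 1 lay above it (1.14). Only 1 of the 5 was called, and it was lower. Adam19, a membrane protease, had 72.3, 61.4 and 56.7 CPM against 22.3, 14.7 and 18.4 (-1.78 ± 0.33, adjusted p = 0.00748). Spon2, a matrix protein, fell by 2.72 and Tnfrsf19, a TNF receptor family member, by 1.89 on the log2 scale, each with a call lost without WTCKD + RNLS replicate 3 (adjusted p = 0.0517 and 0.0501). Gm19410 changed by -1.83 ± 0.30 and was called in each leave-one-out fit, whereas Igsf23 and Sytl2 lost their calls in 4 (adjusted p up to 0.0757 and 0.16).

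The same virus was given to RNLS knockout mice with CKD. The contrast of these hearts shares no heart with the wild-type contrast, but their libraries entered the same fit and its estimate of the spread, and 377 genes were called in wild-type hearts with only the 6 libraries. There 2138 genes were called by the same test (17% of those tested). Of the 585 genes called in wild-type hearts 265 were called in the same direction in knockout hearts, 150 higher and 115 lower, which is 45.3% of the wild-type and 12.4% of the knockout calls, and 2 were called in the opposite direction. Arntl changed by -3.66 in knockout hearts (edgeR adjusted p = 0.001), Per2 by 2.37 (0.0123), Per3 by 1.87 (0.00467), Hlf by 1.604 (0.00156), Col3a1 by -1.58 (0.00165), Pdk4 by -1.93 (0.00471) and Cldn5 by -1.81 (0.00255). Other clock genes called in wild-type hearts did not pass in knockout hearts, among them Npas2 at -0.91 (adjusted p = 0.136), Clock at -0.36 (0.108), Dbp at 1.22 (0.126) and Bhlhe41 at 0.49 (0.117). The difference between the genotypes was tested directly as an interaction, and edgeR found 0 genes at an adjusted p under 0.05 (smallest 0.101), with 2277 at an unadjusted p under 0.05. DESeq2 called 482 genes for the same difference.

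Some genes called in wild-type hearts had knockout values near 0, without a difference that passed the adjustment. Fbxo32 changed by -0.50 in wild-type and 0.09 in knockout hearts (unadjusted p of the difference 0.000203), Ltbp4, which binds latent TGF-beta, by -0.57 and 0.23 (0.000349), Nid2 by -0.66 and 0.04 (0.000645) and Ccnd1 by -0.60 and 0.00 (0.00183). The same held for Insig1, which restrains sterol synthesis, at -0.71 and -0.01 (0.00146). For the clock genes and for Col3a1 the unadjusted p of the difference was above 0.05 in each gene named in the previous paragraph, which does not show that the effects were alike. It was 0.0161 for Pdk4 and 0.0441 for Cldn5, whose falls were larger in wild-type hearts.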

How the data were processed

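RNA-seq counts of 15 mouse hearts, 3 in each of 5 groups taken from the sample labels, were used. Per the methods and the submitters' processing notes, the authors trimmed reads with Trimmomatic, mapped them with HISAT2, counted them per gene with HTSeq and deposited the raw counts, which were whole numbers. The methods name mm9 and the notes GRCm39 as the genome, and the tables hold symbols without coordinates. The authors also deposited FPKM from Cufflinks, which from the values equal counts divided by a gene length and the library total. They were used only for levels between genes. The authors' libraries came from a stranded kit, and the strand setting of the counting was not given in the sources used here. The deposited table held 17447 genes, 300 of them without a count, and each column matched a sample.

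Genes with at least 10 counts in at least 3 of the 6 libraries compared were tested in R 4.3.3 with edgeR 4.0.16 (TMM factors of 0.927 to 1.05, a quasi-likelihood fit of the group over all 15 libraries, common biological coefficient of variation 0.131). Totals of 10480788 to 13424078 counts per library set the precision. Called means a Benjamini-Hochberg adjusted p under 0.05 over all 12573 genes. CPM in the text are TMM-scaled, marker sums are not, and ± after a log2 fold change is the standard error. The labels give separate samples without naming cultures or litters, so p-values measure the spread between these 3 against 3 samples, and an exact test of such groups cannot give a p below 0.10. The code was tested on simulated counts with 200 changed genes of 12573, where edgeR recovered 174 with 8 false calls, edgeR on 6 libraries 173 with 10 and DESeq2 on 6 libraries 177 with 22.

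Members, lists of 42 gene groups and 17 cell types, and the rules were chosen with earlier results of these data known. By rule the text names the 15 largest rises and 15 largest falls (called, mean log2 CPM over 1, no overlap), up to 4 called members of each list by p, or 2 of highest CPM where none was called, and called markers. A few genes that the rule names are not reported here. Genes such as Nppa, Nppb, Myh7, Acta1, Per1, Cry1, Nr1d1, Col1a2, Acta2, Ppara, Apln, Aplnr, Sox10 and Fkbp5, and members given only as values, were added after their values were seen. List symbols were matched by symbol (1056) or synonym (2), and 28 were absent from the table. Motifs were searched in RefSeq promoters (GRCm38.p6) with Python 3.11.15, pandas 2.3.3 and numpy 2.4.6, and plots used matplotlib 3.10.9. Alternatives were no filter, filterByExpr, RLE factors, DESeq2 1.42.0, the replicate number as a block, gene length offsets (lowess span 0.3), only the 6 libraries and leaving out each library. No label says that the replicate numbers pair the samples, and the correlations of same-numbered deviations (-0.045, -0.311 and -0.309) cannot settle it.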

Additional observations from a re-analysis of the deposited data

How the results depend on the processing

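All 585 called genes kept their sign under each alternative. The number of calls was 637 with no filter on low counts, 582 with filterByExpr, 613 with RLE factors, 655 with DESeq2 and 528 with the replicate block, which left 490 of the 585 called. Deviations from the group means correlated at -0.045, -0.311 and -0.309 between same-numbered hearts and at -0.0459 to 0.302 between the others. Deviations from a mean of 3 hearts depend on each other, so these values cannot show whether the numbers mark a shared day or litter. The count moved by over 1.5 times with only the 6 libraries (377, of which 324 were among the 585). It also did so at the study's fold-change minimum and an unadjusted edgeR p under 0.05 (1805). Leaving out WTCKD replicate 1 or 2 or WTCKD + RNLS replicate 1 or 3 moved it as far (290, 212, 283 and 299). Without WTCKD replicate 3 or WTCKD + RNLS replicate 2 it moved less (470 and 791). The lowest leave-one-out count, without WTCKD replicate 2, held 206 of the 585. The highest, without WTCKD + RNLS replicate 2, had 506 higher and 285 lower genes and held 458. Length offsets gave 816 calls, of which 518 were among the 585, with 529 higher and 287 lower against 278 and 307. They moved the median of all genes to 0.07 on the log2 scale, and under the other alternatives it lay between -0.015 and 0.017. The difference between genotypes, 0 genes in every edgeR fit with all 15 libraries, was 482 by DESeq2 and 2277 at an unadjusted p. It ranged from 0 to 1 gene over the leave-one-out fits, Tuba4a without WTCKD + RNLS replicate 1 (adjusted p = 0.0389). The cause of these moves was not tested, except that the leave-one-out fits and the fit of 6 libraries use fewer samples. Medians of the laminin, immediate early, complex I and complex II to V lists crossed 0 when single libraries were left out (-0.21 to 0.03, -0.48 to 0.25, -0.04 to 0.20 and -0.03 to 0.20), as did those of several lists with a median near 0. Leave-one-out medians also moved by over 1.5 times, with no change of sign, in the network collagens (-0.88 to -0.44, the latter without WTCKD replicate 2), the integrins (-0.24 to -0.06, the latter without WTCKD replicate 2) and, with the lowest value without WTCKD + RNLS replicate 2, the sarcomere (0.08 to 0.20), fatty acid oxidation (0.04 to 0.22), glycolysis (0.07 to 0.16) and heat shock lists (0.04 to 0.16). Depth limits the genes of a few CPM, of which Adamts4 had a treated heart with a count of 0.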

Other observations

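Nkx2-5 and Tuba4a were the 2 genes called in opposite directions in the genotypes. Nkx2-5, a homeobox factor of the heart, had 66.7, 60.2 and 57.9 CPM in WTCKD and 71.8, 87.1 and 79.4 in WTCKD + RNLS (0.37 ± 0.09 on the log2 scale, edgeR adjusted p = 0.0284), and changed by -0.29 in knockout hearts (adjusted p = 0.0392). Tuba4a, a tubulin, changed by 0.48 ± 0.13 in wild-type hearts (adjusted p = 0.0417) and by -0.49 in knockout hearts (adjusted p = 0.0174). The difference had an adjusted p of at least 0.101 in both, and the wild-type calls were lost in 4 and 5 of the 6 leave-one-out fits (adjusted p up to 0.117 and 0.183), that of Tuba4a also with the replicate block (0.0674).

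Abcc9, a subunit of ATP-sensitive potassium channels that marks pericytes and is also expressed in muscle, was the 1 pericyte and smooth muscle marker of 6 called (440, 421 and 468 CPM in WTCKD against 626, 504 and 694, 0.46 ± 0.10, adjusted p = 0.0151), and the call was lost in 4 leave-one-out fits (adjusted p up to 0.0693). The summed markers of this class overlapped between the groups, at 1298, 1371 and 1546 against 1555, 1208 and 1583 CPM. Adipocyte markers were at 12.7, 17.9 and 0.083 CPM in WTCKD and 0.328, 0.515 and 2.01 in WTCKD + RNLS, and mesothelial markers at 10.4, 21.2 and 9.76 against 4.10, 5.58 and 3.80. Lung epithelial markers were at 0 in WTCKD and at most 0.655 CPM in the treated hearts. T cell, B cell, neutrophil and mast cell markers summed to at most 19.9 CPM in any of the 6 hearts. Skeletal muscle markers, which include Ckm of heart, summed to 2787 to 3185 CPM in WTCKD and 2917 to 3472 in WTCKD + RNLS.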
